A study of Homo sapiens with 47 samples.

Results

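Replication-dependent H3 and H4 genes encode the histones that pair as the inner part of each new nucleosome. They were taken as the entries of the authors' table of ELL binding whose names hold HIST, a digit and then H3 or H4, matched by gene identifier to the RNA-seq counts. The rule found 33 of the 90 replication-dependent histone (RDH) genes of that table, among 58395 genes counted by RNA-seq. Of the 33, 14 are H3 genes, 15 are H4 genes and 4 carry pseudogene names and are given apart. The study asked how the contact between Mediator and the little elongation complex (LEC) affects transcription termination at genes whose RNA gets no poly(A) tail. RNA was measured in wild-type HEK293T cells, a human embryonic kidney line, and in an EAF1-mutant line made from it, with 3 libraries of each. ELL, an elongation factor in LEC, was mapped by ChIP-seq in wild-type HEK293T cells, with 2 replicates and 1 input library. In the EAF1-mutant line, CRISPR-mediated knock-in put alanines in place of the EAF1 residues that bind the Mediator subunit MED26, on both alleles. It is a single cell line, so the mutation and other differences of that line cannot be told apart. A point mutation need not lower the transcript, so the level of EAF1 RNA cannot show the mutation itself. EAF1 RNA was nevertheless below wild-type in every EAF1-mutant library, as given below with the LEC genes. The paper reports little change in EAF1 protein in this line. The labels do not say whether replicates came from separate cultures, and the paper calls its replicates biological without describing them for these libraries, so the p-values measure the spread between these libraries.

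RNA-seq used total RNA depleted of ribosomal RNA, which also records RNA without a poly(A) tail. The wild-type libraries had totals of 59137210, 52541541 and 55637032 counts, against 57198018, 53369621 and 66611451 in the EAF1-mutant libraries. Values for each library are given as CPM, the gene's counts scaled to the library size after adjustment by edgeR's TMM method. Levels of different genes are compared as CPM per kb of the annotated gene. The deposited ELL table gives scaled signal and no read counts per gene.

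As background, RDH genes are transcribed mainly during S phase, when newly copied DNA needs histones, and they lie in clusters that gather in histone locus bodies around the protein NPAT. Their RNAs carry no introns and no poly(A) tail and end instead just after a short hairpin, the histone stem-loop, which is bound by the protein SLBP. The factor HINFP acts at H4 promoters, and H3 and H4 leave the cytoplasm as a dimer held by chaperones such as ASF1 and NASP.

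The stem-loops are shown because they are what all of these genes share beyond their coding sequence. A histone stem-loop of 16 bases was found within 120 bases after the stop codon in 29 of the 29 H3 and H4 genes, and in 0 of 4049 other protein-coding genes of the same chromosomes, histone genes left out. It began 22 to 57 bases after the stop codon, with a median of 35. Only 6 distinct forms occurred, and none was shared between the families. The most common form was that of 11 H3 genes, and 10 H4 genes had the next. HIST1H4I, HIST1H4K, HIST2H4A and HIST2H4B shared a form of their own, as did HIST1H3G and HIST3H3. HIST1H3E and HIST1H4L each had a form found in no other member. The examples are 26 bases long, 5′ to 3′ on the gene's strand in GRCh38, with the stem-loop in capitals. HIST1H3B lies at chr6:26031592-26031617 on the minus strand, HIST1H3E at chr6:26225591-26225616 on the plus strand and HIST3H3 at chr1:228424848-228424873 on the minus strand. HIST1H4C lies at chr6:26104312-26104337, HIST1H4I at chr6:27139649-27139674 and HIST2H4A at chr1:149833027-149833052, all on the plus strand, and HIST1H4L at chr6:27873148-27873173 on the minus strand.
HIST1H3B: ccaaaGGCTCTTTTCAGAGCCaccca
HIST1H3E: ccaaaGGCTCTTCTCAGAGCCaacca
HIST3H3: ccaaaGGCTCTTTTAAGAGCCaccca
HIST1H4C: ccaaaGGCCCTTTTCAGGGCCgctca
HIST1H4I: aaaaaGGCCCTTTTTAGGGCCcctaa
HIST2H4A: ccaaaGGCCCTTTTTAGGGCCgacca
HIST1H4L: tcaaaGGCCCTTCTCAGGGCCaccca

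Promoters split the families too. RefSeq promoter windows on GRCh38, 300 bases long, were found for 25 of the 29 genes, and HIST1H3I, HIST1H3J, HIST1H4A and HIST1H4C had none. The windows were searched on both strands for the motif TATAAA, to which TBP binds in many promoters. They were also searched for the CCAAT box, and for GGTCCG, which is part of the H4 promoter element bound by HINFP. CCAAT was present in 12 of the 12 H3 genes with a window and in 3 of the 13 H4 genes, where 34.6% of all 35116 windows hold it. GGTCCG had the opposite distribution, in 12 of the 13 H4 genes and 1 of the 12 H3 genes, where 11.3% of all windows hold it. The H4 gene without it was HIST1H4G, and the H3 gene with it was HIST1H3F. TATAAA was present in 10 H3 genes and 7 H4 genes, where 11.5% of all windows hold it. The 25 genes had 27 windows, as HIST1H3D and HIST1H3E had more than 1 each. A gene was counted where any of its windows held the motif, while the shares are of single windows. These matches describe the letters in the windows and say nothing of binding. The pair of genes at either end of the range of change in EAF1-mutant cells, HIST1H3F and HIST1H4I, are shown beside HIST1H3B and HIST1H4B, which had more RNA and more ELL signal over input. Each sequence is the 250 bases before the gene's start in RefSeq, 5′ to 3′ on the gene's strand, with the motifs in capitals on either strand. In HIST1H3F, the GGTCCG match lies on the opposite strand and overlaps the CCAAT match, and TATAAA matches on both strands overlap, so each pair appears as 1 run. HIST1H3F spans chr6:26250636-26250885 and HIST1H3B chr6:26032100-26032349, both on the minus strand. HIST1H4I spans chr6:27139032-27139281 on the plus strand, which lies inside the longer span of this gene in the authors' table, and HIST1H4B chr6:26027284-26027533 on the minus strand.
HIST1H3F: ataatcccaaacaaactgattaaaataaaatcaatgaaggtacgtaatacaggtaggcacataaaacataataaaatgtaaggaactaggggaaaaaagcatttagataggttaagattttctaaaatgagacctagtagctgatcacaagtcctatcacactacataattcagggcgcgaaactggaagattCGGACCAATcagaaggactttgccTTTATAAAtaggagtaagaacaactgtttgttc
HIST1H3B: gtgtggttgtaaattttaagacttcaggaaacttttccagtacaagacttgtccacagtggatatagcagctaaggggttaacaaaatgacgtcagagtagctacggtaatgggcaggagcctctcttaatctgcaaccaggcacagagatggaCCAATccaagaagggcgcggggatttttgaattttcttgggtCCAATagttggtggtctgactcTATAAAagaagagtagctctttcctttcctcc
HIST1H4I: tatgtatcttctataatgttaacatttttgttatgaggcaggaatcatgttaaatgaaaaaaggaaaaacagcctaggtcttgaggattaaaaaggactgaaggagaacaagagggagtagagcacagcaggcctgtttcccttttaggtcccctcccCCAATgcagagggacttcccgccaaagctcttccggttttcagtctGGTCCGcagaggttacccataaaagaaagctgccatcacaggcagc
HIST1H4B: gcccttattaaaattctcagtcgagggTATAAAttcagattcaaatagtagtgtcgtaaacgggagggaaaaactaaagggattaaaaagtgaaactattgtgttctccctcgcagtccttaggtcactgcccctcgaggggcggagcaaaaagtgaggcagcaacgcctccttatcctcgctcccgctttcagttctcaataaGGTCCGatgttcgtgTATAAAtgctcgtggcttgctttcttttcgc

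The copies are near-identical in places, which limits how far counts can be assigned to 1 gene. Coding sequences of H3 genes were 80.9% to 100.0% identical between pairs, with a median of 85.3% over 91 pairs, and those of 14 H4 genes 79.0% to 100.0%, with a median of 83.8% over as many pairs. HIST1H4G, whose coding sequence is shorter, was left out. HIST2H3A and HIST2H3C had the same coding sequence, as did HIST2H4A and HIST2H4B, and HIST1H4J and HIST1H4K. In a count made after the data were seen, 22 of the 29 genes shared no stretch of 100 exon bases, the read length, with another member. The share of such stretches found elsewhere was 100.0% in HIST2H3A, HIST2H4A and HIST2H4B, 99.1% in HIST2H3C, 91.3% in HIST1H4K, 90.7% in HIST1H4J and 46.2% in HIST2H3D. How the counting treated reads that match several genes is not stated in the sources at hand. Of the 29 genes, 16 have another annotated gene or another member on their span. The annotated spans ran from 297 to 8030 bases, with a median of 435, and 12 were over 1 kb, so a value per kb depends on which length is used.

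In wild-type cells, H4 genes had more RNA per kb of span than H3 genes by the median, 109.6 against 69.5 CPM per kb, and this difference was not tested. Both families ran from near 0 upwards, and 5 H3 genes and 3 H4 genes had under 1 CPM. The highest H3 gene, HIST1H3B, had 1121 CPM per kb and the highest H4 gene, HIST1H4K, had 799. The top genes depend on the length: per kb of exon they were HIST2H3C at 1449.7 and HIST1H4C at 699, and per kb of coding length HIST2H3C at 1855 and HIST2H4B at 2542. Among genes with at least 1 CPM, the order of the medians was the other way, 323 CPM per kb for H3 and 179 for H4. With exon length in place of span the medians were 140.8 for H3 and 373 for H4, and with coding length 186 and 552.

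Among H3 genes, HIST1H3B (ENSG00000274267, chr6:26031650-26032060) had 1151, 1023 and 1189 CPM per kb in the wild-type libraries and 650.0, 671 and 665 in the EAF1-mutant libraries. HIST2H3D (chr1:149813271-149813681) came next, with 691, 599.7 and 676 CPM per kb in wild-type and 278, 271 and 259 in EAF1-mutant libraries. HIST2H3C (chr1:149839538-149841193), whose exons are nearly all shared with HIST2H3A, had 487, 405 and 479 in wild-type and 221, 224 and 219 in EAF1-mutant libraries. In each of the 3, every EAF1-mutant library lay below every wild-type library. The wild-type order was separated from gene to gene down to HIST2H3A, whose libraries overlapped those of HIST1H3A at 347 ± 34.1 and 323 ± 26.0 CPM per kb (SD, n = 3). HIST1H3H at 246, HIST1H3J at 93.1, HIST1H3F at 45.8, HIST1H3E at 2.48 and HIST1H3D at 1.66 CPM per kb followed, each apart from the next. HIST1H3C, HIST3H3, HIST1H3I and HIST1H3G were at 0.213 CPM per kb or less.

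Among H4 genes, HIST1H4K (chr6:27831216-27831527) had 853, 719.9 and 824 CPM per kb in wild-type and 469, 476 and 473 in EAF1-mutant libraries. HIST1H4C (ENSG00000197061, chr6:26103876-26104310) had 659, 627 and 667 in wild-type and 387, 373 and 377 in EAF1-mutant libraries. HIST1H4J (chr6:27824108-27824480), which shares its coding sequence with HIST1H4K, had 649, 551 and 626 in wild-type and 356, 364 and 364 in EAF1-mutant libraries. All 3 were lower in every EAF1-mutant library than in any wild-type library. The wild-type levels of HIST1H4C, HIST1H4J and HIST1H4D overlapped from 1 gene to the next, as did those of HIST2H4B and HIST2H4A, at 109.6 ± 10.1 and 98.6 ± 9.04 CPM per kb (SD, n = 3). All other neighbours in the order from HIST1H4K down to HIST1H4I were apart. Wild-type replicate 2 was the lowest of its group in each of these 6 H3 and H4 genes.

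The share of each locus in a family depended on the length used, or on using none. HIST1, the cluster on chromosome 6, holds 22 of the 29 genes, HIST2 on chromosome 1 holds 5, and HIST3H3 and HIST4H4 lie outside both. By the median, HIST2 genes had 347 CPM per kb of span and HIST1 genes 69.5, a difference that was not tested. HIST1 gave 55.7% and HIST2 44.3% of the summed wild-type H3 level per kb of span. For H4 the shares per kb of span were 93.9% and 5.68%. Exon lengths moved these shares to 35.8% and 64.2% for H3, and to 82.0% and 17.6% for H4. In summed CPM with no length, HIST1 had 1179 and HIST2 1600 CPM of H3. The same loci had 1591 and 1486 CPM of H4, so the contrast between families was far smaller. The HIST2 sums rest largely on near-identical copies, and reads shared between these may enter both values. HIST2H3A and HIST2H3C had 574 and 757 CPM, and HIST2H4A and HIST2H4B 701 and 786 CPM. HIST2H4A and HIST2H4B are annotated as spans of 7109 and 7166 bases, each of which overlaps an H3 gene on the opposite strand. The 10 HIST1 H3 genes had a median of 24.1 CPM per kb and the 12 HIST1 H4 genes 179.

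**Figure D1:**
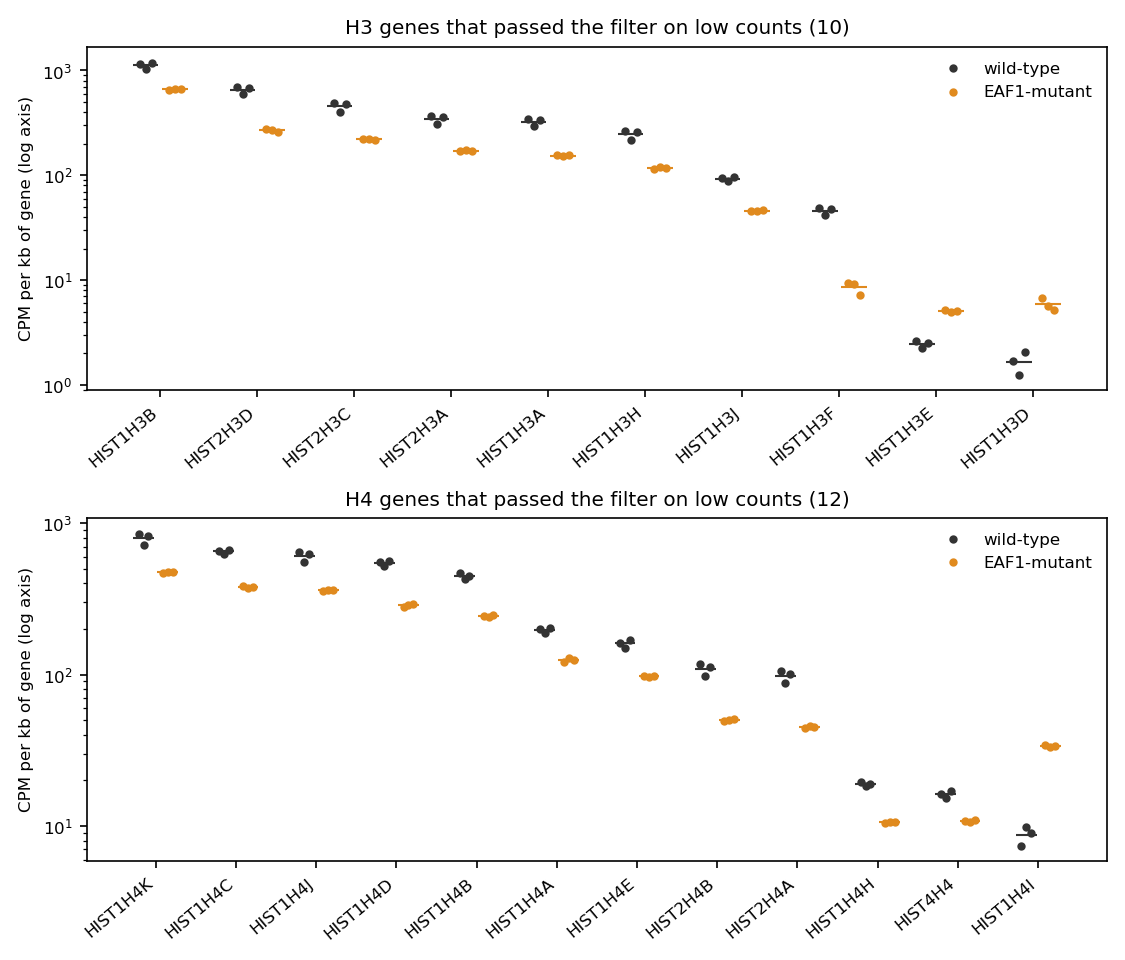
Level of each tested H3 gene (upper panel, 10 genes) and H4 gene (lower panel, 12 genes) in CPM per kb of annotated gene on a log axis, in order of wild-type level, with 1 point per library and a line at the mean of 3. EAF1-mutant points lie below wild-type points except in HIST1H3E, HIST1H3D and HIST1H4I.

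The comparison of EAF1-mutant with wild-type libraries asks how RNA from these genes differs in a line without the MED26-binding site of EAF1. It was tested by edgeR's quasi-likelihood test over the 28025 genes that passed its filter on low counts, with Benjamini-Hochberg adjustment, and a gene was called where the adjusted p was under 0.01 and its log2 fold change beyond 0.5 in either direction. Of the 29 genes, 22 passed the filter (10 H3 and 12 H4), and the 7 others had 0 to 7 counts in every library. Those 7 were HIST1H3C, HIST1H3G, HIST1H3I, HIST3H3, HIST1H4F, HIST1H4G and HIST1H4L. Among H3 genes, 8 were called lower and 2 higher, and among H4 genes 11 were called lower and 1 higher. Over all tested genes, 9.36% were called lower and 11.0% higher. All 19 lower genes had every EAF1-mutant library below every wild-type library, as had 28.1% of all tested genes, and the 3 higher genes had every EAF1-mutant library above, as had 29.2%. These are bulk samples, so fewer cells in S phase and less histone RNA per such cell cannot be told apart. Scaling to library totals instead of TMM moved the median over all tested genes from 0.01 to 0.13 on the log2 scale, and the calls over all genes went from 2624 lower and 3071 higher (46.1% lower) to 1840 lower and 4169 higher (30.6% lower). HIST4H4 was the only H3 or H4 gene whose call was lost with that scaling.

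The median log2 fold change was -1.03 for the tested H3 genes and -0.77 for the tested H4 genes, beside 0.01 for all tested genes. Over every member with a count it was -0.89 for the 14 H3 genes and -0.76 for the 15 H4 genes. Whether H3 and H4 genes differed was not tested. The tested H3 genes ran from -2.43 to 1.82 and the tested H4 genes from -1.13 to 1.95.

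HIST1H3F (ENSG00000277775, chr6:26250195-26250605), the H3 gene with GGTCCG in its window, had 19.9, 17.2 and 19.5 CPM in wild-type and 3.86, 3.74 and 2.94 CPM in EAF1-mutant libraries. Its groups were far apart, and it had the lowest log2 fold change of all H3 and H4 genes, -2.43 (SE 0.09, adjusted p = 1.35e-16 by edgeR). SE is a standard error derived as the size of the fitted log2 coefficient over the square root of edgeR's F statistic. HIST2H3D had 284, 246 and 278 CPM in wild-type and 114, 111 and 107 CPM in EAF1-mutant libraries. It was lower in all of the latter, with a log2 fold change of -1.28 (SE 0.05, adjusted p = 1.83e-16 by edgeR). HIST2H4A (chr1:149832659-149839767), whose sequence is fully shared with other HIST2 members, had 754, 629 and 719 CPM in wild-type and 316, 323 and 322 CPM in EAF1-mutant libraries. The groups did not overlap, and its log2 fold change was -1.13 (SE 0.05, adjusted p = 3.29e-15 by edgeR).

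The 3 genes that rose all lie in HIST1 and had little RNA in wild-type cells. HIST1H4I (ENSG00000276180, chr6:27138588-27139881) had 9.58, 12.8 and 11.6 CPM in wild-type and 44.6, 43.0 and 43.9 CPM in EAF1-mutant libraries. The EAF1-mutant libraries were all above, with a log2 fold change of 1.95 (SE 0.07, adjusted p = 5.47e-17 by edgeR). HIST1H3D (chr6:26196840-26197250), on whose strand another protein-coding model also lies, had 0.690, 0.514 and 0.841 CPM in wild-type and 2.79, 2.34 and 2.14 CPM in EAF1-mutant libraries. Its groups were apart at a low level, with a log2 fold change of 1.82 (SE 0.17, adjusted p = 5.47e-09 by edgeR). HIST1H3E (chr6:26224199-26227473), whose annotated span is 3275 bases and overlaps 2 other annotated genes on its strand, had 8.66, 7.40 and 8.28 CPM in wild-type and 17.1, 16.2 and 16.5 CPM in EAF1-mutant libraries. All of the latter were higher, with a log2 fold change of 1.03 (SE 0.06, adjusted p = 3.44e-12 by edgeR). Of these genes, HIST1H4I shared its stem-loop form with HIST1H4K, HIST2H4A and HIST2H4B, which fell, and HIST1H3D shared its own with HIST1H3B and HIST1H3F, which fell. HIST1H3E had a form found in no other member.

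The genes with the most wild-type RNA per kb of span fell by less than HIST1H3F. The log2 fold changes were -0.76 for HIST1H3B (adjusted p = 1e-12), -1.05 for HIST2H3C (adjusted p = 2.34e-14), -0.76 for HIST1H4K (adjusted p = 2.92e-12), -0.78 for HIST1H4C (adjusted p = 2.24e-14) and -0.75 for HIST1H4J (adjusted p = 2.58e-12), all from edgeR's quasi-likelihood test. In CPM with no length, HIST2H3C had the most wild-type RNA of the H3 genes, at 757. Of the H4 genes HIST2H4B had the most, at 786. The near-identical HIST2 copies had similar fold changes, though their levels differed. HIST2H3A (chr1:149852619-149854274) had 369, 307 and 363 CPM per kb in wild-type and 169.9, 173 and 169 in EAF1-mutant libraries. Like its copy HIST2H3C, it was lower in every EAF1-mutant library, with a log2 fold change of -1.02 (SE 0.05, adjusted p = 3.74e-14 by edgeR). HIST2H4B (chr1:149854045-149861210) had 846, 705 and 806 CPM in wild-type and 354, 361 and 364 CPM in EAF1-mutant libraries. It moved as HIST2H4A did, with a log2 fold change of -1.13 (SE 0.05, adjusted p = 3.42e-15 by edgeR), and reads shared between copies may enter both values.

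**Figure D2:**
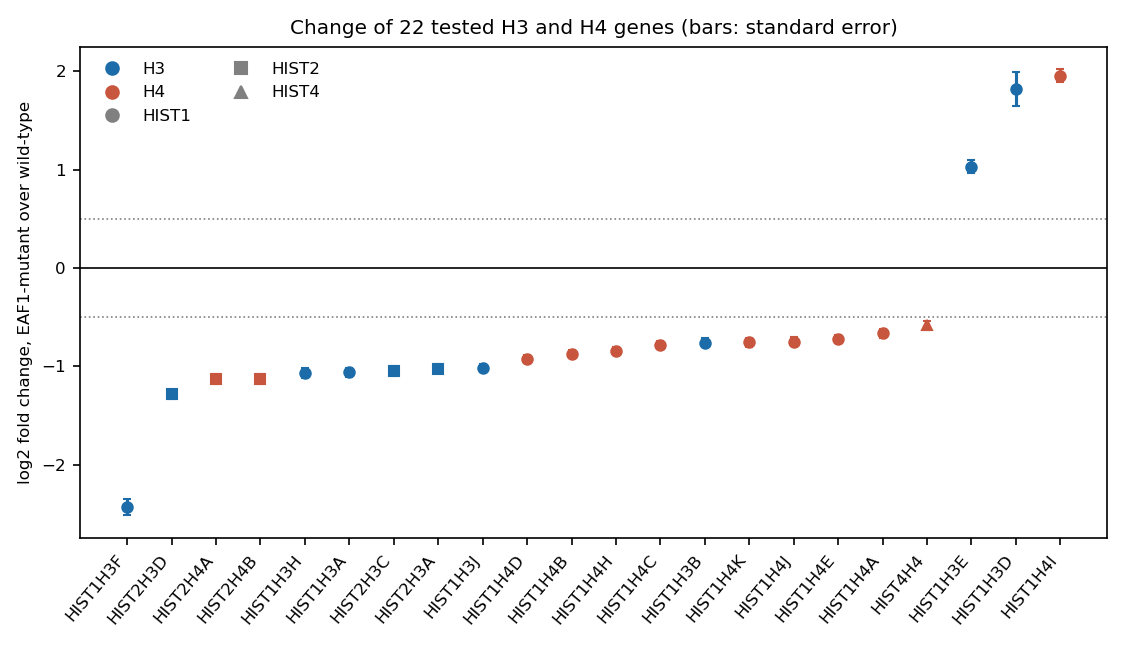
Log2 fold change of each tested H3 and H4 gene (22 genes), EAF1-mutant over wild-type, with bars of 1 standard error derived from edgeR's coefficient and F statistic, coloured by family and shaped by locus. Dotted lines mark 0.5 in size, and 19 genes lie below them and 3 above.

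Summed over every member, the 7 untested included, H3 genes had 2926, 2505 and 2908 CPM in the wild-type libraries and 1383, 1400.5 and 1382 CPM in the EAF1-mutant libraries. The sums did not overlap, and the EAF1-mutant mean was 49.9% of the wild-type mean, a log2 ratio of -1.001. H4 genes had 3295, 2879.6 and 3208 CPM in wild-type and 1658, 1669.7 and 1682 CPM in EAF1-mutant libraries. Here too the groups were apart, with 53.4% remaining and a log2 ratio of -0.91. The spread was wider in wild-type libraries, at an SD of 238 CPM for H3 and 219 for H4 (n = 3), than in EAF1-mutant libraries, at 10.5 and 11.9 (n = 3). Wild-type replicate 2 had the lowest sum of both families. The H3 sum over the H4 sum was 0.888, 0.870 and 0.907 in wild-type libraries and 0.834, 0.839 and 0.822 in EAF1-mutant libraries. The ratio was thus lower in each EAF1-mutant library, by a log2 difference of -0.09, and no test was made. That difference was -0.24 without the near-identical HIST2 copies (HIST2H3A, HIST2H3C, HIST2H4A and HIST2H4B). As a share of all counts, the means went from 0.267% to 0.144% for H3 and from 0.300% to 0.174% for H4.

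**Figure D3:**
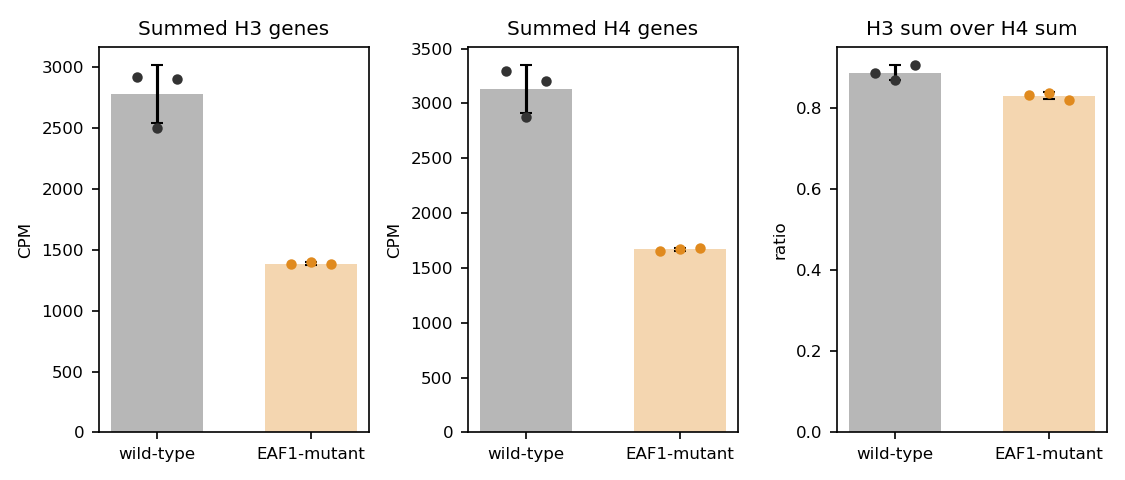
Summed CPM of all 14 H3 genes (left) and all 15 H4 genes (middle), and the ratio of the sums (right), with bars at the mean of 3 libraries, error bars of 1 SD and 1 point per library. EAF1-mutant libraries sit at 1382 to 1400.5 CPM for H3 and 1658 to 1682 CPM for H4, all below the wild-type libraries.

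By locus, 13 of the 16 tested HIST1 genes were called lower and 3 higher, with a median log2 fold change of -0.77, and all 5 HIST2 genes were called lower, with a median of -1.13. Over all tested genes, 9.36% were called lower and 11.0% higher. The sum of HIST1 H3 and H4 genes had a log2 ratio of -0.81 and that of HIST2 genes -1.10. Within HIST1 the median was -1.02 for 7 tested H3 genes and -0.76 for 9 tested H4 genes, and within HIST2 it was -1.05 for 3 H3 genes and -1.13 for 2 H4 genes. Over every member with a count, the HIST1 medians were -0.47 for H3 and -0.74 for H4, and those of HIST2 -1.05 and -1.13, so the order of the families in HIST1 depends on the untested genes. None of these differences was tested. HIST4H4 (chr12:14767999-14771131), an H4 gene outside both clusters, had 50.7, 48.2 and 53.3 CPM in wild-type and 34.0, 33.4 and 34.2 CPM in EAF1-mutant libraries. It was lower in each, with a log2 fold change of -0.58 (SE 0.04, adjusted p = 9.6e-11 by edgeR), which was -0.47 with library totals and then short of the threshold of 0.5. HIST3H3 (chr1:228424845-228425325), a testis H3 gene, had 3, 3 and 7 counts in wild-type and 2, 4 and 4 in EAF1-mutant libraries. No difference was detectable at this depth.

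Neighbouring genes were described in a comparison chosen after the data were seen, with no test of a difference, beside the 9.36% of all tested genes called lower and the 11.0% called higher. Within 5 Mb of the HIST1 members, 269 tested genes that are not RDH genes had a median log2 fold change of 0.06, with 5 called lower and 42 higher. Around HIST2, 233 such genes had a median of -0.26, with 43 called lower and 6 higher. Around HIST3H3 the median of 129 genes was -0.31, with 39 called lower and 5 higher, and around HIST4H4 that of 96 genes was 0.05, with 8 called lower and 6 higher. The part of the level around HIST2 in the lower values of HIST2 genes was not tested.

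ELL association is the mean over both replicates of a gene's ELL signal divided by its input signal, and asks how much of this LEC subunit lies at each gene in wild-type cells. In 13 of the 29 genes, 6 H3 and 7 H4, both replicates gave a ratio above 2, beside 30.0% of all 90 RDH genes. It was under 1 in both in 7 genes, 4 H3 and 3 H4, beside 17 of all 90 RDH genes. The median ratio was 1.57 for H3 and 1.66 for H4, and the replicates alone gave 1.81 and 1.69 for H3 and 1.51 and 1.82 for H4. The order of the families thus depended on the replicate. By locus the median was 1.57 for HIST1, where 10 of 22 genes were above 2 in both replicates, and 2.58 for HIST2, where 3 of 5 were. The HIST2 genes above 2 were the 3 H3 genes, and the long spans of HIST2H4A and HIST2H4B had ratios of 1.51 and 1.81, and of 1.51 and 1.82. HIST2H3A had ratios of 3.56 and 4.58, HIST2H3C of 4.72 and 5.21, and HIST2H3D of 2.71 and 2.46. Between replicates the rank correlation across the 29 genes (Spearman's rho) was 0.918, and 6 genes had replicate ratios more than 2-fold apart.

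The highest mean ratio was that of HIST1H4C, whose replicates gave 127 and 165 with an input of only 0.958. That is 2.2 per kb, where the median RDH gene had 41.3 per kb, so its ratio rests on a near-empty denominator. With the median input of all 90 genes in its place, a repeat chosen after the data were seen for the single genes, the ratio was 7.76, and HIST1H3B came first at 9.62. HIST1H4B (chr6:26026815-26027252) followed with ratios of 8.15 and 14.2, or 6.56 with the median input. HIST1H4B had 205, 188 and 196 CPM in wild-type and 107, 105 and 109 CPM in EAF1-mutant libraries. It was lower in all of the latter, with a log2 fold change of -0.88 (SE 0.04, adjusted p = 7.77e-15 by edgeR). HIST1H3A (chr6:26020490-26020900) had ratios of 7.62 and 8.77 over an input of 8.49, or 4.10 with the median input. Its RNA stood at 140.2, 120.4 and 137 CPM in wild-type and 64.3, 62.6 and 63.5 CPM in EAF1-mutant libraries. The groups did not overlap, and the log2 fold change was -1.06 (SE 0.05, adjusted p = 7.87e-15 by edgeR).

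The lowest mean ratios belonged to genes with almost no RNA. HIST1H3D, described above among the genes that rose, had ratios of 0.120 and 0.332. HIST1H4L (chr6:27873199-27873510) had ratios of 0.429 and 0.189, with 4, 3 and 1 counts in wild-type and 1, 1 and 4 in EAF1-mutant libraries. HIST1H4F (chr6:26240426-26240737) had ratios of 0.449 and 0.360, with 0, 1 and 2 counts in wild-type and 1, 1 and 0 in EAF1-mutant libraries. Neither of the last pair was tested. HIST1H3D, HIST1H4L and HIST1H4F had inputs of 74.2, 88.7 and 88.2 per kb, above the RDH median of 41.3. With the median input, their ratios were 0.406, 0.663 and 0.864, and that of HIST1H3I was 0.413. By the same repeat HIST1H4I had 1.11 and HIST1H3F 1.05. HIST1H3E, with ratios of 1.14 and 1.36, and HIST1H4I, with 0.959 and 0.511, were also at or near the input. HIST1H3F, which fell furthest, had ratios of 0.782 and 0.671, so it and the 3 genes that rose had little ELL signal over input. That was not particular to them, as HIST1H4H had ratios of 0.904 and 1.03 at a log2 fold change of -0.84. HIST4H4 had ratios of 1.42 and 1.04 at a log2 fold change of -0.58.

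Across the 29 genes, ELL association and wild-type CPM per kb had a Spearman rho of 0.863, which was 0.767 over the 14 H3 genes and 0.936 over the 15 H4 genes. All points share the same libraries, both measures use the annotated span, and genes are not independent replicates. All 13 genes with a ratio above 2 in both replicates were among the 21 with a mean of at least 10 CPM over all 6 libraries, a set that takes in HIST1H3E at 8.11 CPM in wild-type libraries, and within those 21 the rho was 0.834. Of the 8 genes under that mean, 0 had such a ratio and 5 were under 1 in both replicates. Across the 22 tested genes, ELL association and log2 fold change had a rho of -0.126, and across the same 21 genes one of 0.003.

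**Figure D4:**
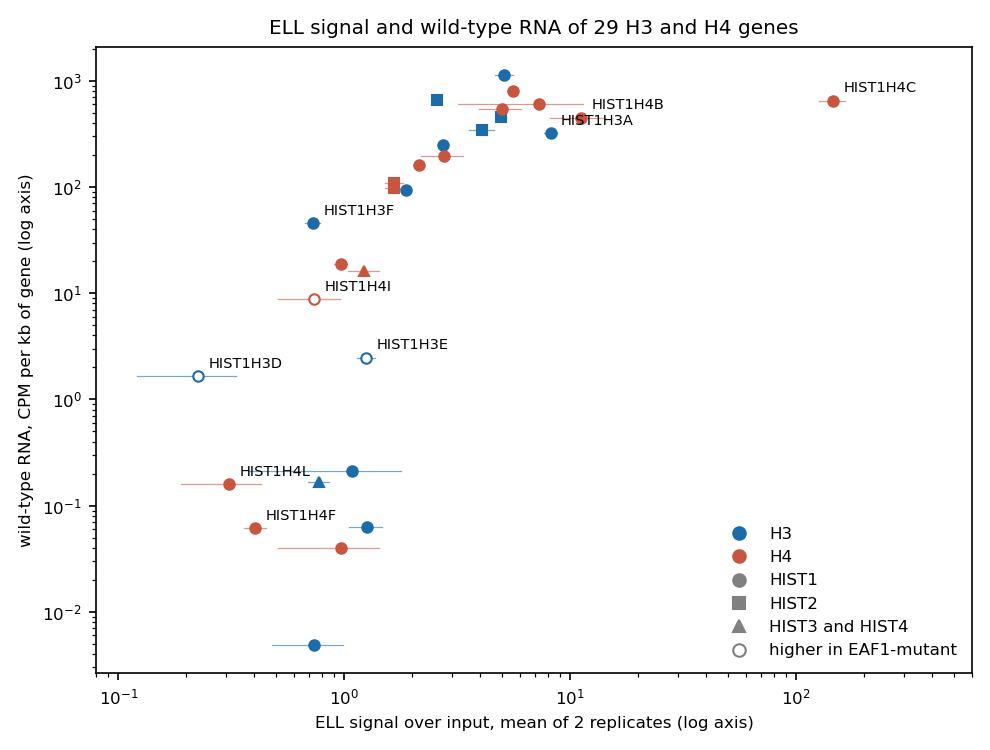
Wild-type RNA in CPM per kb of annotated gene against the mean ratio of ELL signal to input, both on log axes, for all 29 H3 and H4 genes, with thin lines joining the replicate ratios. Open points are the 3 genes called higher in EAF1-mutant cells, and genes with a ratio above 2 in both replicates all lie at high RNA.

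Of the 4 members with pseudogene names, edgeR called 2 lower and 2 higher, where it called 9.36% of all tested genes lower and 11.0% higher. DESeq2 called the same 2 lower but neither of the others, which had few counts. HIST2H3PS2 (chr1:143905556-143905966), annotated as protein-coding and with a stem-loop of the common H3 form, had 8.54, 8.51 and 8.02 CPM in wild-type and 3.02, 2.84 and 2.53 CPM in EAF1-mutant libraries. Its groups were apart, with a log2 fold change of -1.58 (SE 0.09, adjusted p = 8.11e-13 by edgeR), and its ELL ratios were 3.10 and 3.28 over an input signal of 4.26, but 0.799 on average with the median input. HIST2H3DP1 (chr1:121118195-121118610) had 6.05, 5.90 and 6.54 CPM in wild-type and 2.28, 2.50 and 1.94 CPM in EAF1-mutant libraries. It was lower in each, with a log2 fold change of -1.47 (SE 0.11, adjusted p = 3.89e-11 by edgeR), and 22.4% of its 100-base stretches are shared with other members. HIST1H3PS1 (chr6:26321876-26322292) had 17, 22 and 27 counts in wild-type and 50, 39 and 46 in EAF1-mutant libraries. All of the latter were higher, with a log2 fold change of 0.83 (SE 0.24, adjusted p = 0.00593 by edgeR), but DESeq2's adjusted p of 0.0477 did not pass the threshold of 0.01. HIST1H4PS1 (chr6:27807075-27807339) had 5, 7 and 4 counts in wild-type and 26, 12 and 21 in EAF1-mutant libraries. It passed the filter only through its EAF1-mutant counts, so that these had to be the higher ones, and DESeq2 did not call it (adjusted p = 0.019).

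The other RDH families of the same table are given for comparison, and no difference between families was tested. Among all tested genes, 9.36% were called lower and 11.0% higher. Of 16 tested H2A genes, 15 were called lower and 1 higher, with a median log2 fold change of -0.97. Among 22 tested H2B genes, 16 were called lower and 2 higher, with a median of -0.77. Among 5 tested H1 genes, 3 were called lower and 2 higher, with a median of -0.71. The median ELL ratio was 2.23 for H2A, 1.29 for H2B and 1.92 for H1, the last of which was 3.07 in replicate 1 and 1.08 in replicate 2, and both replicates gave a ratio above 2 in 8 of 17 H2A, 2 of 23 H2B and 2 of 6 H1 genes.

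Genes that handle, transcribe or process H3 and H4 were described from lists given in full to the same fit. Of 17 genes for chaperones, acetylation and import of H3 and H4, 2 were called lower and 0 higher, with a median log2 fold change of -0.00, or 0.11 with library totals. Among all tested genes 9.36% were called lower, so this count is near the background and says nothing particular of the list. Those 2 were IPO4, which carries the histones into the nucleus, at -0.69 (140.1 ± 8.33 to 86.8 ± 1.40 CPM, SD, n = 3, adjusted p = 2.05e-12 by edgeR), and ATRX, a remodeller that works with the H3.3 chaperone DAXX, at -0.82 (161.7 ± 4.33 to 91.4 ± 1.37 CPM, adjusted p = 9.81e-15 by edgeR). At an unadjusted p under 0.05, 7 were lower and 7 higher, where 27.8% of all tested genes were lower and 28.5% higher at that threshold, and DESeq2 called the same numbers as edgeR, 2 and 0. NASP, a chaperone of H3-H4 dimers, had a log2 fold change of 0.37, under the threshold of 0.5.

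Of 17 genes for histone gene transcription and 3′ processing, 0 were called in either direction by edgeR or DESeq2, with a median of 0.01 (0.13 with library totals). At an unadjusted p under 0.05, 6 were lower and 6 higher. For this list and the replacement genes below, 27.8% of all tested genes were lower and 28.5% higher at that threshold. Over all tested genes, edgeR called 9.36% lower and 11.0% higher, so 0 calls in lists this short say little. SLBP itself had 84.7 ± 0.593 CPM in wild-type and 86.4 ± 2.74 in EAF1-mutant libraries (SD, n = 3), a difference within their spread. NPAT had a log2 fold change of 0.15, HINFP one of 0.27 and CASP8AP2, another protein of histone locus bodies, one of -0.42. The replacement genes H3F3A, H3F3B, H3F3C and CENPA encode H3 variants made outside S phase or for centromeres, and 0 of the 4 were called by edgeR or DESeq2, with 2 lower and 0 higher at an unadjusted p under 0.05 and a median of -0.12. Their summed level was 667, 684 and 683 CPM in wild-type and 627, 608 and 610.1 CPM in EAF1-mutant libraries. The groups were apart, but overlapped with library totals in place of TMM, at 638, 658 and 657 against 652, 633 and 632 CPM, where the median was -0.00.

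Among the 7 LEC genes, EAF1 was called lower and EAF2 higher, with a median of -0.03. Of all tested genes, 9.36% were called lower and 11.0% higher. At an unadjusted p under 0.05, 2 LEC genes were lower and 3 higher, beside 27.8% and 28.5% of all tested genes. DESeq2 called 1 lower and 1 higher. EAF1 went from 57.4 ± 0.951 CPM in wild-type to 18.8 ± 0.884 in EAF1-mutant libraries (SD, n = 3), a log2 fold change of -1.61 (edgeR, adjusted p = 2.48e-18). The lower EAF1 RNA and the mutation cannot be told apart here. EAF2, its paralogue, went from 4.12 ± 0.504 to 8.08 ± 0.522 CPM (SD, n = 3), a log2 fold change of 0.97 (edgeR, adjusted p = 5.03e-09). Of 14 S-phase genes, PCNA, the sliding clamp of replication, was called lower and 0 were called higher, with a median of -0.01, a count near the 9.36% called lower among all tested genes. PCNA went from 225 ± 2.82 to 133 ± 1.90 CPM (SD, n = 3), a log2 fold change of -0.76 (edgeR, adjusted p = 1.7e-14). At an unadjusted p under 0.05, 4 were lower and 4 higher, shares near the 27.8% and 28.5% of all tested genes, and DESeq2 called 1 lower and 0 higher. MCM5, a helicase subunit, had a log2 fold change of 0.46, and CLSPN, a replication checkpoint adaptor, one of -0.48. The summed S-phase level was 2808, 2836 and 2886 CPM in wild-type and 2767, 2765 and 2796 CPM in EAF1-mutant libraries. The EAF1-mutant libraries were the lower ones here but the higher ones with library totals, at 2684.7, 2728 and 2776 against 2880.5, 2880.3 and 2899 CPM, where the median was 0.11. Of 10 genes of G2 and M, 0 were called by edgeR, while DESeq2 called 1 lower and 0 higher, with a median of -0.13. At an unadjusted p under 0.05, 9 were lower and 0 higher, beside 27.8% and 28.5% of all tested genes. Their sum was 2124, 2205 and 2131 CPM in wild-type and 1994, 1893 and 1927 CPM in EAF1-mutant libraries. With library totals the sums overlapped, at 2031, 2121 and 2049.9 against 2077, 1972 and 1998 CPM, and the median was -0.02. The part of these levels in the histone values was not tested.

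The cell line was checked on markers. Of 4 markers of HEK293T cells, NEFL had 53.4 ± 1.75, NEFM 62.4 ± 5.38, INA 6.83 ± 0.529 and PAX2 0.679 ± 0.178 CPM in wild-type libraries (SD, n = 3), so PAX2 was nearly absent. NEFM was lower in EAF1-mutant libraries, at 25.1 ± 0.480 CPM, a log2 fold change of -1.31 (edgeR, adjusted p = 1.35e-15). At an unadjusted p under 0.05, 2 of the 4 were lower and 0 higher, beside 27.8% and 28.5% of all tested genes. Those lower were NEFM and NEFL, the latter with a log2 fold change of -0.15. Neither edgeR nor DESeq2 called any of the 4 higher, where edgeR called 9.36% of all tested genes lower and 11.0% higher. The 5 markers of other cells summed to 2.42, 2.99 and 3.59 CPM in wild-type and 4.20, 4.59 and 4.62 CPM in EAF1-mutant libraries. Nearly all of this was COL1A1, at 2.85 ± 0.584 and 4.16 ± 0.152 CPM (SD, n = 3, log2 fold change 0.54, adjusted p = 5.67e-04 by edgeR), while PTPRC, PECAM1, COL1A2 and ALB had means of 0.144 CPM or less in both groups. The part of these markers in the histone values was not tested.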

How the data were processed

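RNA-seq covered 3 wild-type and 3 EAF1-mutant HEK293T libraries, and ELL ChIP-seq 2 replicates and 1 input of wild-type cells. For RNA-seq, the authors trimmed reads, mapped them to GRCh38 with HISAT2 2.3.4.1, counted them with Rsubread and deposited raw counts per Ensembl gene. The counting settings for strand, overlapping genes and multi-mapped reads are not stated in the sources at hand. ChIP reads were mapped by the authors with Bowtie2 2.3.5.1, and the deposited values are CPM-scaled signal summed over each RDH gene. Here, edgeR 4.0.16 in R 4.3.3 applied filterByExpr, TMM and quasi-likelihood tests to all genes, with the thresholds of the paper's methods (adjusted p 0.01, log2 fold change 0.5). Of the 33 members, 30 had their identifier in the annotation and all 33 a current symbol. The fit was tested on simulated data. DESeq2 1.42.0 was an alternative, as were library totals, no filter, a looser threshold, a replicate block, omission of each library, other lengths, single ELL replicates and other inputs. Levels, sums and ELL ratios were computed in Python 3.11.15 with pandas 2.3.3, and sequences were read from RefSeq tables and the GRCh38 reference. Values in every library are given for the 3 H3 and 3 H4 genes with the most wild-type RNA per kb, the 3 members with the largest and the 3 with the smallest log2 fold change, the 3 highest and 3 lowest in ELL ratio, the near-identical HIST2 copies, HIST3H3 and HIST4H4, and pseudogenes. Members and lists were chosen with earlier results of these data known.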

Additional observations from a re-analysis of the deposited data

How the results depend on the processing

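Of 146 alternative values for 17 results, 125 moved by less than the spread between libraries, or kept their count within 1.5 times, and 0 changed direction. The counts of 8 lower and 2 higher H3 genes held under all settings tried, as did the 1 higher H4 gene, and the 11 lower H4 genes became 10 with library totals. That scaling, which also moved the median of all genes, gave -0.79 for the summed H4 ratio and -0.65 for the medians of H4 and of HIST1 genes. Without the near-identical HIST2 copies, the summed H4 ratio was -0.73 and the difference in H3 over H4 was -0.24. Leaving out the member with the most RNA in CPM in each family gave a difference of -0.15. Over every member with a count, which adds untested genes, the H3 median was -0.89. Wild-type medians per kb were 186 (H3) and 552 (H4) with coding length, 140.8 and 373 with exon length, and 323 and 179 for genes of at least 1 CPM, where the order of the families changed. The median ELL ratio was 1.81 and 1.69 in single replicates for both H3 and HIST1, 1.25 for HIST1 genes with an input of at least 10, and, with the median input, 2.02 for H4 and 2.39 for HIST2; the cause was not tested for the scaling, length, copy and ELL values. With each library left out in turn, the H4 median ran from -0.83 to -0.76, the former without wild-type replicate 2.

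Replicate numbers did not pair the libraries. Same-numbered pairs had correlations of -0.00537, -0.0166 and 0.00974 over 28025 genes, with no pair of libraries above 0.0348, and a replicate block gave the same 8, 2, 11 and 1 calls. Genes of 0 to 7 counts could not be compared at this depth, the ELL table gives no reads per gene, and the single input has no replicate.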
